A study of Mus musculus with 10 samples.

Results

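The genes described here are 10 genes of epithelial inflammation and host defence: the cytokine genes Il18, Il1b and Tnf, the secreted defence genes Lcn2, S100a8, S100a9 and Saa1, and the oxidant-producing genes Nos2, Duox2 and Duoxa2. They were picked as a named set with earlier results of these arrays known, and their probes were found by the gene symbol in the array table. Of the 10 genes 9 had a probe under their symbol, 1 probe each, and 4 of these passed the filter on dim probes that left 9365 genes of 18138 gene symbols for testing. Duoxa2 had no probe under its symbol and was not analysed here. The arrays measured RNA of whole ileum, the final segment of the small bowel. There were 5 arrays from mice of the genotype iPGC-1β and 5 from mice of the genotype wild-type, given as littermates. Both groups were FVB/N mice aged 3 to 4 months, and the labels give no treatment, sex, litter or batch. The label iPGC-1β is used in the field for mice that overexpress the coactivator PGC-1β in the intestinal epithelium, but the labels spell out neither the allele nor the promoter that drives it.

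The intestinal epithelium carries out a large part of its own defence. Enterocytes store pro-IL-18 and release the cytokine after cleavage by inflammasome caspases, whereas IL-1β and TNF come mainly from macrophages and other immune cells. Lipocalin-2, the product of Lcn2, withholds iron from bacteria by binding their siderophores, calprotectin (S100a8 with S100a9) withholds zinc and manganese, and serum amyloid A is an acute-phase protein that gut epithelium makes in contact with bacteria. Inducible nitric oxide synthase (Nos2) and the dual oxidase DUOX2 with its maturation factor DUOXA2 release nitric oxide and hydrogen peroxide. Most of these genes are known to be induced through NF-κB and through STAT3, the latter downstream of IL-22.

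Of the 9 genes with a probe, Lcn2 and Il18 were lower on the iPGC-1β arrays, none was higher, and 5 lay at or near background in both groups. Among all 9365 tested genes 17.3% were called by limma at an adjusted p under 0.05, 7.41% lower and 9.88% higher. The 5 members under the filter were fitted with all probes of the array, of which 6.72% were called and of the 5 members 0. The members' share stands beside that background without a test, since the members are few and chosen. The groups did not overlap in Lcn2 and in Il18, which was so in the lower direction for 5.62% of all tested genes.

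Both genes are shown with the 250 bases that precede their annotated start (RefSeq, GRCm38.p6), since they are the members that passed the test. The entry for Lcn2 lies at chr2:32387740-32387989 on the minus strand and that for Il18 at chr9:50554450-50554699 on the plus strand. Both read from the far end to the start of the gene, and capitals mark every match to any of the 5 motifs searched.
Lcn2: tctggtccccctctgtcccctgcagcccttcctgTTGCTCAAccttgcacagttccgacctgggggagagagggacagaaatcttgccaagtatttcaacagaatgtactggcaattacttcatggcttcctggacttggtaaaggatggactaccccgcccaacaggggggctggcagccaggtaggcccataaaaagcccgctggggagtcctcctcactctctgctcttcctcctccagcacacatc
Il18: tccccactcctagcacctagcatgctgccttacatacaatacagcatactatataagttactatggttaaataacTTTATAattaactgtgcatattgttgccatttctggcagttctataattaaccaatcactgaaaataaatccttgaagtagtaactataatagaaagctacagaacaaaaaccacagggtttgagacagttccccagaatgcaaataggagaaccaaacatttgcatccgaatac
The motifs, searched on both strands, were STAT (TTCNNNGAA), C/EBP (TTNNGNAA), ERR (TCAAGGTCA), the TATA box (TATAAA) and the NF-κB consensus. The Lcn2 window held 1 match, to the C/EBP letters on the minus strand, from 216 to 209 bases before the start. The Il18 window held 1 match, to the TATA letters on the minus strand, from 175 to 170 bases before the start. Of 32851 promoter windows of this length 36.8% held the C/EBP letters, 12.4% the TATA letters, 7.02% the STAT letters, 7.25% the NF-κB letters and 0.387% the ERR letters. A match is a description of letters and no evidence of binding.

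Values are given in 2 forms. The deposited average signal is linear and includes background: on these arrays the signal needed to stand above background (a detection p under 0.05) was between 129.5 and 155.5, and between 12370 and 12771 probes per array did. The log2 intensity is the same signal after background correction and normalization across arrays, and all differences are iPGC-1β minus wild-type on that scale. Most markers of the ileal epithelium were present, with 22 of 26 enterocyte markers that had a probe and 13 of 14 Paneth cell markers past the filter. The other 4 enterocyte markers, Fabp1, Fabp2, Slc10a2 and Akp3, were above background on 0 arrays. The probe for Ppargc1b, the gene of PGC-1β, was lower on the iPGC-1β arrays (log2 difference -0.61 ± 0.19, SE, limma's adjusted p = 0.0452). Which stretch of the transcript it reads is not known here, so it is no check of a transgene and every direction rests on the arrays as labelled. On iPGC-1β replicate 3 the mean log2 intensity of 10 T cell markers was 5.45, against 7.15 to 8.04 on the other 9 arrays. The values of the 4 tested members and the list counts are therefore also given without that array.

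Of the secreted defence genes, S100a8 and S100a9 lay near background and Saa1 varied widely, and only Lcn2 passed the test. Its average signal was 298.7, 324.3, 242.5, 234.1 and 265.2 on wild-type replicates 1 to 5, and 170.9, 198.4, 153.3, 169.2 and 218.9 on iPGC-1β replicates 1 to 5. All 10 values stood above background, and the highest iPGC-1β array lay under the lowest wild-type array. The log2 intensity was 7.29 ± 0.12 in wild-type and 6.25 ± 0.39 in iPGC-1β ileum (SD, n = 5 each). The difference was -1.04 ± 0.18 (SE, 95% interval -1.42 to -0.66), which is 2.06-fold lower, at an adjusted p of 0.00143 by limma. The exact permutation test over arrays, two-sided, gave p = 0.00794, its smallest possible value here. By its unadjusted p Lcn2 ranked 338 of all tested genes, and by the size of the fall it ranked 100. The size depends on the background correction, with a log2 difference of -0.52 without it (adjusted p = 0.00102). Without iPGC-1β replicate 3, the lowest array, it was -0.89 (adjusted p = 0.00165).

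**Figure D1:**
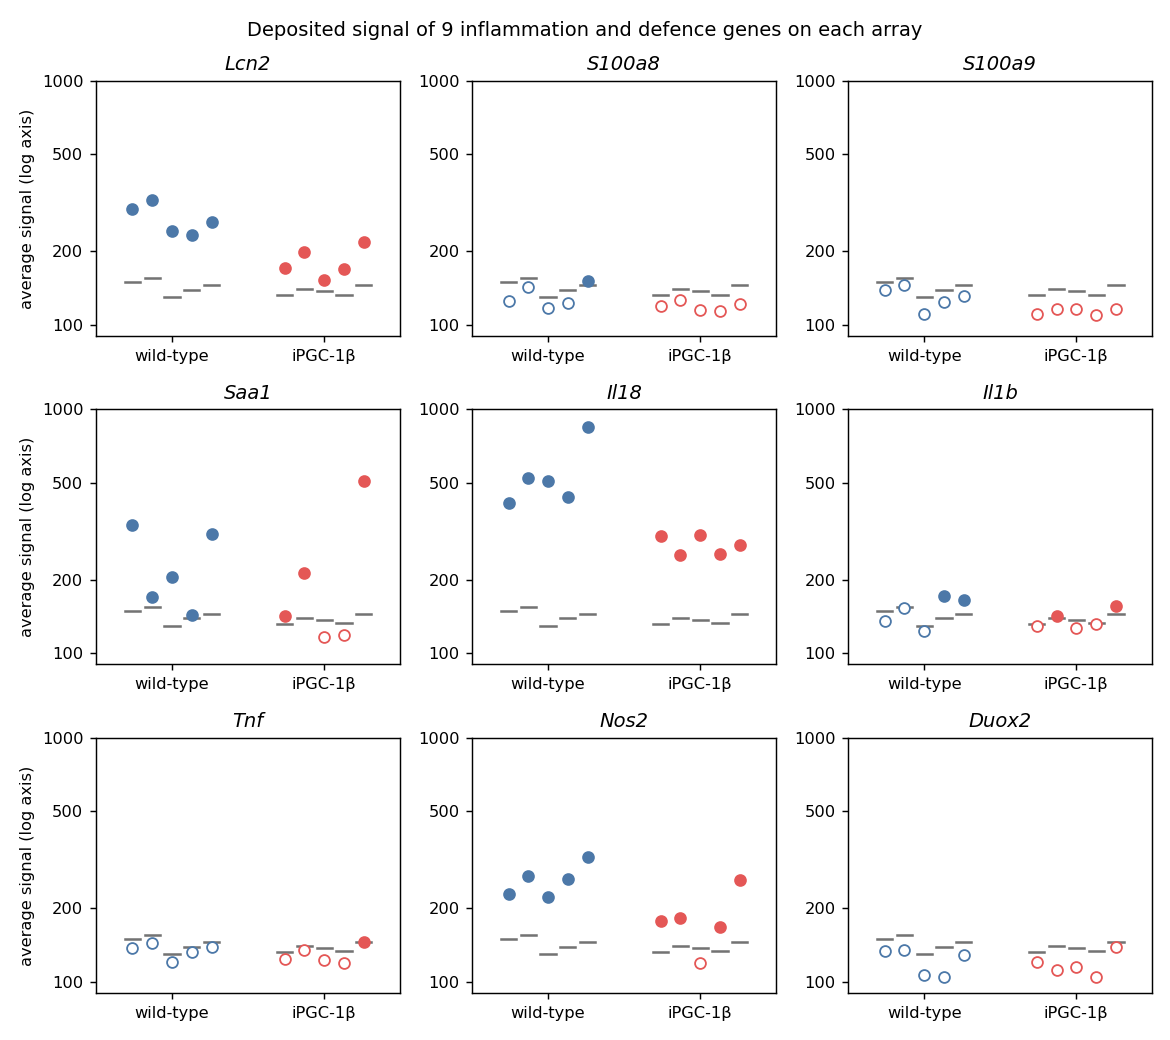
Deposited average signal (log axis) of the 9 members with a probe on each of the 5 wild-type and 5 iPGC-1β arrays, replicates 1 to 5 from left to right. Filled points stand above background (detection p under 0.05), open points do not, and each grey bar is the lowest signal above background on that array; Lcn2 and Il18 show groups that do not overlap, while S100a8, S100a9, Tnf, Il1b and Duox2 lie around the bars.

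Lcn2 is also a product of neutrophil granules. Of 20 other neutrophil markers with a probe 4 passed the filter, of which 0 rose and 0 fell, and 9 were below background on every array. The granule genes Ngp and Prtn3 and the receptor gene Cxcr2 were above background on 0 of 10 arrays, the myeloperoxidase gene Mpo on 1, Elane on 2 and Csf3r on 4. Of the 4 tested markers 2 differed below 0 and 2 above. Among them Cd177 differed by -1.39 ± 0.76 (SE, limma's adjusted p = 0.237) and Ltf by 0.76 ± 0.40 (adjusted p = 0.213). The summed intensity of the 4 tested markers lay between 494 and 1114 on the wild-type arrays and between 171 and 1369 on the iPGC-1β arrays, so the groups overlapped.

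S100a8 and S100a9, the subunits of calprotectin, gave no usable signal. S100a8 ran from 116.9 to 150.6 (median 125.3) in wild-type and from 113.6 to 125.9 (median 119.9) in iPGC-1β ileum, and stood above background on wild-type replicate 5 alone. S100a9 ran from 110.6 to 145.3 (median 131.9) and from 109.6 to 116.6 (median 116.2), and stood above background on no array. Fitted without the filter on dim probes, the log2 differences were -0.20 ± 0.14 for S100a8 (limma's adjusted p = 0.561) and -0.22 ± 0.085 for S100a9 (SE, adjusted p = 0.177). For S100a9 the exact permutation p was 0.00794, because the normalized values just fail to overlap, at 4.48 on the lowest wild-type and 4.47 on the highest iPGC-1β array. Such values near the background carry no level of the gene.

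Saa1 varied more within the groups than between them. Its signal was 337.2, 170.5, 206.1, 143.5 and 309.6 on wild-type replicates 1 to 5, and 142.5, 213.8, 117, 118.6 and 510.7 on iPGC-1β replicates 1 to 5. The highest and the lowest of all 10 values were both iPGC-1β arrays, replicates 5 and 3, and replicates 3 and 4 were not above background. The log2 intensity was 6.60 ± 1.17 in wild-type and 5.95 ± 1.71 in iPGC-1β ileum (SD, n = 5 each), with a difference of -0.64 ± 0.74 (SE, 95% interval -2.24 to 0.95) and limma's adjusted p = 0.597. Leaving out iPGC-1β replicate 5 gave -1.30 (adjusted p = 0.158) and leaving out replicate 3 gave -0.27 (adjusted p = 0.849). Saa1 has a close paralogue in Saa2, and a probe can read both. The Saa2 probe differed by 0.15 (adjusted p = 0.660) and that of Saa3, a form made by epithelium and macrophages, by -0.19 (adjusted p = 0.766). The Saa2 probe stood above background on only 2 wild-type and 3 iPGC-1β arrays, so its difference says little about the gene.

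Among the cytokine genes Il18 changed. Its signal was 415, 522.5, 511.1, 437.1 and 851.3 on wild-type replicates 1 to 5, and 302.2, 252.2, 306.4, 254.9 and 279.3 on iPGC-1β replicates 1 to 5. Every array stood above background, the groups did not overlap, and wild-type replicate 5 was far the highest. The log2 intensity was 8.66 ± 0.57 in wild-type and 7.48 ± 0.30 in iPGC-1β ileum (SD, n = 5 each). The difference was -1.18 ± 0.25 (SE, 95% interval -1.72 to -0.64), 2.27-fold lower, at an adjusted p of 0.00601 by limma (exact permutation p = 0.00794). Without wild-type replicate 5 it was -0.96 (adjusted p = 0.00528), so the call did not rest on that array. Without iPGC-1β replicate 3 it was -1.25 (adjusted p = 0.00906).

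Il18 is known as a gene of epithelial cells. Of 22 tested enterocyte markers 7 fell, 0 rose and 15 did not pass, 4 of them with differences above 0, with a median log2 difference of -0.52 against -0.05 over all tested genes. The brush border protease gene Mep1b (-0.79 ± 0.12, SE, limma's adjusted p = 7.18e-04) and the amino acid transporter gene Slc7a9 (-0.75 ± 0.13, adjusted p = 0.00135) were among those that fell, though the other 2 probes of Mep1b did not pass (-0.70 and -0.56). The mean log2 intensity of the markers on wild-type replicate 5, 10.89, lay within the iPGC-1β range of 10.54 to 11.21. The summed intensity of the 22 markers lay between 137847 and 189125 on the wild-type and between 106832 and 161460 on the iPGC-1β arrays. In whole tissue, fewer cells of a type and less RNA per cell cannot be told apart. With the mean of these markers as a covariate, a fit chosen after the data were seen, the difference was -1.35 for Il18 (adjusted p = 0.0190) and -1.21 for Lcn2 (adjusted p = 0.00491). That mean itself differed between the groups (11.38 in wild-type, 10.92 in iPGC-1β ileum), so the fit cannot separate cell share from genotype.

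Il1b and Tnf, the cytokine genes of activated macrophages, were at the edge of detection. The Il1b signal ran from 123.9 to 171 (median 153.7) in wild-type and from 127.5 to 156.1 (median 132) in iPGC-1β ileum, above background on 2 arrays of each group. The Tnf signal ran from 120 to 144.6 (median 137.6) and from 119.6 to 145.6 (median 123.4), above background on iPGC-1β replicate 5 alone. Fitted without the filter, Il1b differed by -0.20 ± 0.25 (SE, 95% interval -0.75 to 0.36, limma's adjusted p = 0.786) and Tnf by 0.0052 ± 0.11 (-0.23 to 0.24, adjusted p = 0.990). At this signal a difference in either gene was not detectable. Of 16 tested macrophage and monocyte markers 0 rose and 1 fell, Ctss, the gene of the lysosomal protease cathepsin S (-0.50, adjusted p = 0.0276), and their summed intensity overlapped between the groups (2363 to 5159 against 1671 to 4156).

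Among the oxidant genes Nos2 was lower on most iPGC-1β arrays but did not pass the test. Its signal was 229, 272.4, 223.2, 262.8 and 324.3 on wild-type replicates 1 to 5, and 177.1, 182.4, 119, 167.9 and 260.7 on iPGC-1β replicates 1 to 5. In log2 intensity 4 of the 5 iPGC-1β arrays lay under every wild-type array, replicate 5 lay within the wild-type range, and replicate 3 was not above background. The log2 intensity was 7.19 ± 0.40 in wild-type and 6.08 ± 0.98 in iPGC-1β ileum (SD, n = 5 each), a difference of -1.11 ± 0.39 (SE, 95% interval -1.94 to -0.27) at an adjusted p of 0.0687 by limma (exact permutation p = 0.0317). Without iPGC-1β replicate 5 it was -1.38 (adjusted p = 0.0221), without replicate 3 it was -0.71 (adjusted p = 0.0804), and without background correction -0.51 (adjusted p = 0.0594).

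Duox2 stood above background on 0 of 10 arrays. Its signal ran from 104.7 to 134.4 (median 128.9) in wild-type and from 105 to 139.3 (median 115.2) in iPGC-1β ileum, and the fitted difference without the filter was 0.049 ± 0.12 (SE, limma's adjusted p = 0.900). The probe of Duoxa1, the maturation factor of the related oxidase DUOX1, was above background on 0 arrays as well.

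**Figure D2:**
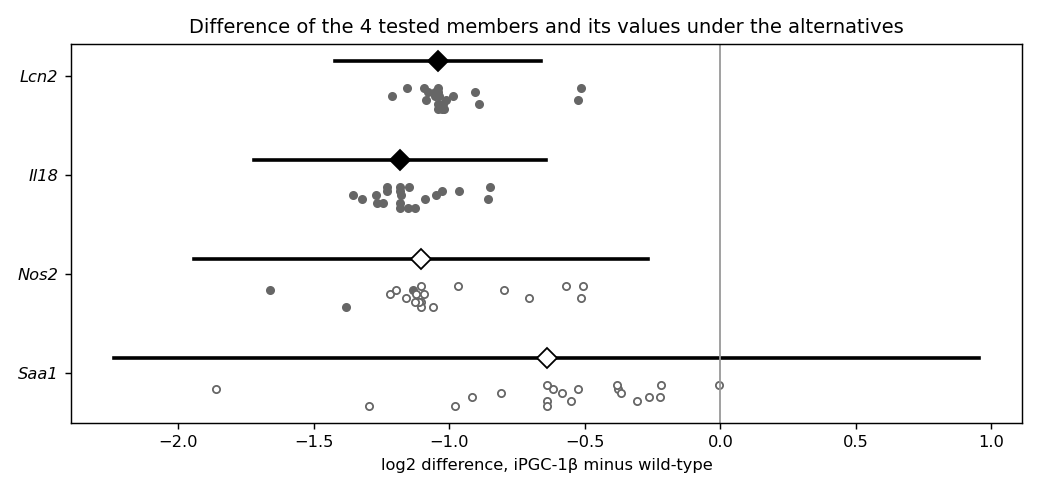
Log2 difference (iPGC-1β minus wild-type) of the 4 members past the filter, with the reported value and its 95% interval as a diamond and bar and the value under each alternative as a circle. Filled symbols have limma's adjusted p under 0.05: Lcn2 and Il18 are filled throughout, Nos2 is filled under 3 alternatives and the circles of Saa1 are open.

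In log2 intensity the members did not share 1 order of arrays. Within the iPGC-1β group, replicate 5 was the highest and replicate 3 the lowest for Lcn2, Nos2 and Saa1 alike, whereas Il18 was highest on replicate 1 and lowest on replicate 2. Within the wild-type group Il18 and Nos2 were highest on replicate 5, and Lcn2 and Saa1 on replicate 1. Spread differed too: the SD of Lcn2 in iPGC-1β ileum was 3.09 times that in wild-type ileum, and the SD of Il18 was 0.529 times.

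Once each group's mean was subtracted, the closest of all tested genes over the 10 arrays were Pyy (r = 0.96), the gene of a hormone of the distal gut, and Tdrd3 (r = 0.93) for Lcn2, and Wdr37 (r = 0.95) and Csl (r = 0.94) for Il18. For Nos2 they were Rpl27 (r = 0.96) and Gbp6, an interferon-induced GTPase gene (r = 0.95), and for Saa1 Chic1 (r = 0.93) and Siat7f, now St6galnac6 (r = 0.92). These are the highest of many Pearson coefficients over the same arrays, given as a description. None of these 8 genes passed the test between the groups.

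The genes around the members were grouped in 7 lists: IL-1 family and signalling, inflammasome, TNF and NF-κB, pattern receptors, oxidases and nitric oxide, IL-22 with IL-17 and STAT3, and acute phase with iron and S100 genes. Of 159 listed genes with a probe 96 were tested, of which 15 fell (15.6%, against 7.41% of all tested genes) and 3 rose (3.13%, against 9.88%). The median log2 difference was -0.22 in the lists and -0.05 over all tested genes, and 73 of the 96 genes lay below 0 (76.0%, against 55.8%). The lists were chosen with earlier results of these arrays known, so their shares stand beside the background without a test. Without iPGC-1β replicate 3 the lists held 10 genes that fell and 2 that rose, and the calls of Ikbkg, Ly96, Myd88, Ass1, S100a10 and S100a14 were lost. The count of genes that fell was 7 without wild-type replicate 3, 9 without wild-type replicate 2 and 9 without iPGC-1β replicate 4. Over all tested genes the count that fell also moved, to between 421 and 792 with single arrays left out, against 694. Among the 18 called genes Stat3, Socs3, Casp4, S100a11 and S100a1 kept their call under all 21 alternatives. Without background correction the log2 differences of the dimmer genes were smaller by over 1.5 times, at -0.18 for Tirap, -0.34 for Ly96, -0.26 for Ass1, -0.36 for Traf3ip2, -0.23 for S100a14, -0.23 for S100a16 and 0.28 for Ikbkg.

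**Figure D3:**
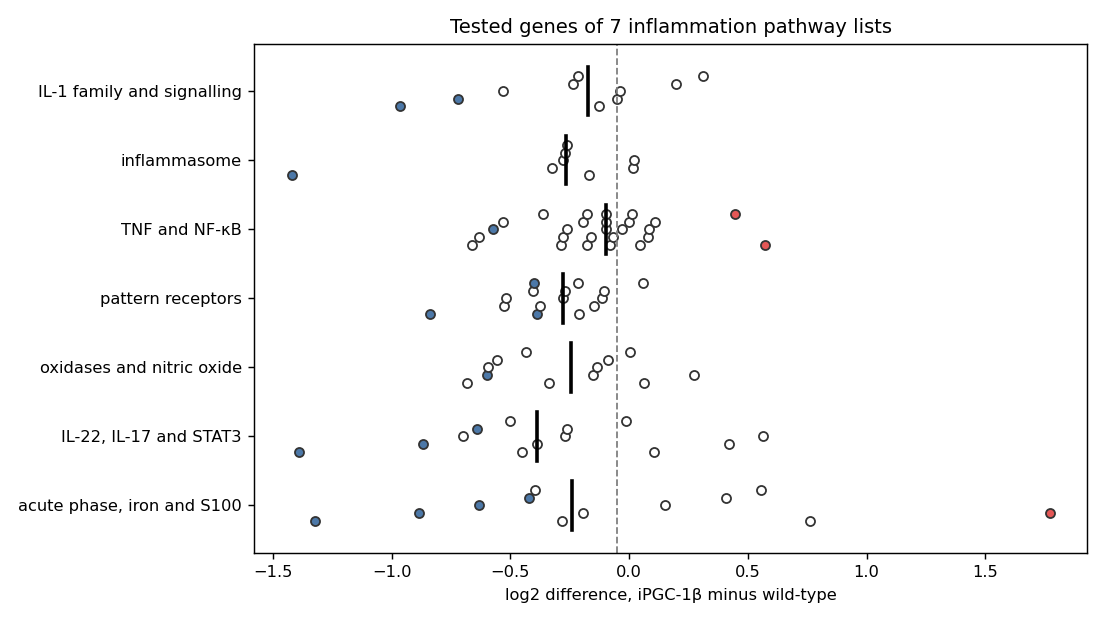
Log2 difference (iPGC-1β minus wild-type) of the tested genes in the 7 pathway lists, 1 point per gene, blue where lower and red where higher at limma's adjusted p under 0.05 and white otherwise. Black bars are list medians, between -0.39 and -0.10, and the dashed line is the median of all tested genes at -0.05.

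Stat3 and Socs3 were lower in the list of IL-22, IL-17 and STAT3 genes. Of 13 tested genes 3 fell and 0 rose, with a list median of -0.39. Stat3, the transcription factor that IL-22 and IL-6 activate, was 9.97, 10.06, 10.28, 9.81 and 9.89 (log2 intensity) on wild-type replicates 1 to 5 and 8.85, 9.25, 8.89, 9.24 and 9.44 on iPGC-1β replicates 1 to 5. Every iPGC-1β array lay under every wild-type array, with a difference of -0.87 ± 0.15 (SE, limma's adjusted p = 0.00168), and the other 2 probes of Stat3 fell as well (-0.86 and -0.61).

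Socs3, a target of STAT3 that feeds back on the same receptors, was 8.83, 9.59, 9.93, 9.05 and 9.61 on the wild-type arrays and 7.56, 8.01, 7.52, 8.30 and 8.66 on the iPGC-1β arrays. These groups did not overlap either, and the difference was -1.39 ± 0.26 (SE, adjusted p = 0.00250). Traf3ip2, whose product ACT1 is the adaptor of IL-17 receptors, fell by 0.64 on the log2 scale (adjusted p = 0.0185), though with adjusted p = 0.0516 once wild-type replicate 1 was left out. The kinase genes Jak1 and Tyk2 differed by -0.39 and -0.45 and did not pass (adjusted p = 0.0590 and 0.0521). The cytokine genes Il22 and Il6 were above background on 0 of 10 arrays, and the receptor gene Il22ra1 on 4.

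Of 10 tested genes of the IL-1 family and its signalling 2 fell and 0 rose. Tollip, an adaptor that restrains IL-1 and Toll-like receptor signalling, differed by -0.72 ± 0.15 (SE, limma's adjusted p = 0.00624) with groups that did not overlap, and the kinase gene Irak2 by -0.97 ± 0.24 (SE, adjusted p = 0.0137) with 1 iPGC-1β array inside the wild-type range. With the enterocyte covariate the differences were -0.54 and -0.72, and neither passed (adjusted p = 0.0748 and 0.129). On the side of IL-18 itself, Il18bp, the gene of its soluble inhibitor, differed by 0.31 (adjusted p = 0.174) and the receptor gene Il18r1 by -0.04 (adjusted p = 0.946).

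Of 8 tested inflammasome genes 1 fell and 0 rose. Casp4, the mouse gene of the caspase that senses cytosolic lipopolysaccharide (caspase-11), was 10.29, 10.18, 10.68, 10.15 and 10.60 on the wild-type arrays and 9.40, 9.26, 7.44, 8.99 and 9.71 on the iPGC-1β arrays. The groups did not overlap and iPGC-1β replicate 3 was far the lowest. The difference was -1.42 ± 0.34 (SE, limma's adjusted p = 0.0124), or -1.04 without that replicate (adjusted p = 0.00239), and the other 2 probes fell by 1.45 and 0.64 on the log2 scale. Casp1, whose product cleaves pro-IL-18, differed by -0.27 (adjusted p = 0.219), and its adaptor gene Pycard by -0.33 (adjusted p = 0.332).

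**Figure D4:**
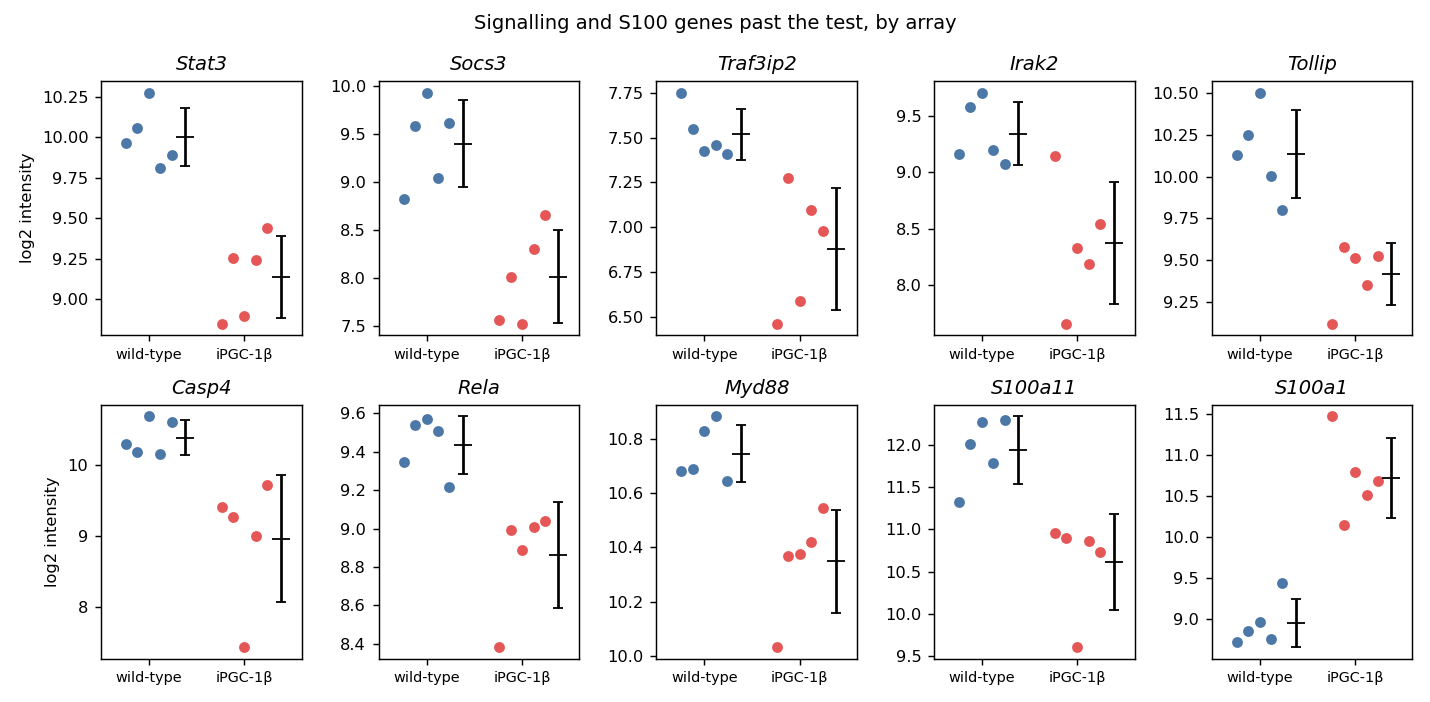
Log2 intensity of 10 genes past the test on each of the 5 wild-type and 5 iPGC-1β arrays, replicates 1 to 5 from left to right, each panel with its own scale. Black bars are the mean ± SD; in all but Irak2 the groups do not overlap, and S100a1 alone is higher on the iPGC-1β arrays.

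In the TNF and NF-κB list 1 of 26 tested genes fell (3.85%), 2 rose (7.69%) and 23 did not pass, shares below those of all tested genes in both directions. Rela, the p65 subunit of NF-κB, differed by -0.57 ± 0.15 (SE, limma's adjusted p = 0.0195), against -0.42 under the enterocyte covariate (adjusted p = 0.156) and -0.54 once wild-type replicate 3 was left out (adjusted p = 0.0506). Birc2, a ubiquitin ligase of the TNF receptor complex, rose by 0.57 ± 0.14 (SE, adjusted p = 0.0135), and Ikbkg, the regulatory subunit of the IκB kinase, by 0.44 ± 0.13 (SE, adjusted p = 0.0386), while its second probe did not pass (0.18). Of the other 2 probes of Birc2 one did not pass (0.27, adjusted p = 0.213) and one was higher (0.87). With the enterocyte covariate Birc2 differed by 0.49 without passing (adjusted p = 0.0925). The call of Ikbkg was lost under 9 of 21 alternatives. The NF-κB feedback genes Nfkbia and Tnfaip3 differed by -0.29 and -0.10 and did not pass (adjusted p = 0.301 and 0.622).

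Among 15 tested pattern receptor genes 3 fell and 0 rose, all close to the threshold. The adaptor gene Myd88 differed by -0.40, Tirap, its bridge to the receptors, by -0.39, and Ly96, the lipopolysaccharide-binding partner of TLR4, by -0.84 (limma's adjusted p between 0.0456 and 0.0485). Their calls were lost under 11, 13 and 12 alternatives, without any change of direction. A second probe of Tirap fell by more (-0.81, adjusted p = 0.0336 by limma over every kept probe). Tlr2 and Nod2 differed by -0.53 and -0.28 without passing (adjusted p = 0.355 and 0.334). Nod2 was above background on only 3 wild-type and 2 iPGC-1β arrays, and Tlr4 on 1 array.

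Of 12 tested genes around oxidant production 1 fell and 0 rose. It was Ass1, of the synthesis of arginine, the substrate of nitric oxide synthase (-0.60 ± 0.17, SE, limma's adjusted p = 0.0285), and its call was lost under 8 of 21 alternatives. The epithelial oxidase gene Nox1 differed by -0.68 (adjusted p = 0.167) and its partner Cyba by -0.56 (adjusted p = 0.149). The phagocyte oxidase gene Cybb was above background on 0 arrays.

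The S100 genes parted. Of 12 tested genes of acute phase, iron and S100 proteins 4 fell and 1 rose, and all 5 are S100 genes. The other S100 genes tested, S100a6 and S100a13, differed by -0.40 and 0.41 and did not pass (limma's adjusted p = 0.105 and 0.238). S100a11 was 11.32, 12.01, 12.26, 11.78 and 12.29 on the wild-type arrays and 10.95, 10.89, 9.61, 10.86 and 10.73 on the iPGC-1β arrays, without overlap, a difference of -1.33 ± 0.27 (SE, limma's adjusted p = 0.00430). S100a10, the partner of annexin A2, S100a14 and S100a16 differed by -0.89, -0.63 and -0.42 (adjusted p = 0.0275, 0.0370 and 0.0381), with calls lost under 8, 10 and 11 alternatives. S100a1, a calcium sensor best known from heart and skeletal muscle, rose 3.41-fold from 8.95 ± 0.29 to 10.72 ± 0.49 (log2 intensity, SD, n = 5 each), with an adjusted p = 1.97e-04. The acute-phase gene Hp differed by -0.28 (adjusted p = 0.565), and lactoferrin (Ltf), another iron-binding defence gene, by 0.76 (adjusted p = 0.213).

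Markers of other cells stood beside these values. Of 10 tested T cell markers 0 rose and 0 fell, with a median log2 difference of -0.61, or -0.23 without iPGC-1β replicate 3, and sums between 1707 and 3152 in wild-type and between 509 and 2224 in iPGC-1β ileum. Of 13 tested Paneth cell markers 0 rose and 0 fell, among them the bactericidal lectin gene Reg3g (-0.53, limma's adjusted p = 0.451). Their median was -0.17, with 11 differences below 0 and 2 above. Mmp7 came nearest to the threshold (-0.82, adjusted p = 0.0940), with groups that did not overlap. Of 9 goblet cell markers 2 fell and 0 rose, Spdef, a transcription factor of secretory cells (-0.52, adjusted p = 0.0289), and the chemokine gene Ccl9 (-0.76, adjusted p = 0.0474). Of 10 B and plasma cell markers 1 fell, Xbp1 (-0.48, adjusted p = 0.0256), which secretory cells of every kind use. Of 12 smooth muscle, 5 dendritic cell and 2 mast cell or eosinophil markers 0 rose and 0 fell. Their median log2 differences were -0.03, -0.55 and -0.57, or -0.01, -0.27 and -0.45 without iPGC-1β replicate 3. All 5 dendritic cell and both mast cell or eosinophil markers lay below 0, and so few genes do not show an unchanged cell type. Without iPGC-1β replicate 3, 0 macrophage, B and plasma cell or goblet cell markers passed, and 8 of 20 tested enterocyte markers fell. The part of these cell types in the values of the members was not tested. The fits with the enterocyte covariate are no such test, because that marker mean itself differed between the groups.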

How the data were processed

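Per the labels' protocols, ileal RNA was isolated with Qiazol and hybridised with a biotin label. The submitters' processing notes name GenomeStudio, without a version. The deposited table holds, per the file headers, an average signal (linear intensity, not normalized) and a detection p-value for 25697 probes on each array. The other deposited table has intensity values processed by the authors in a way the labels do not state. Of the columns with sample values 0 were left unused.

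Signals were corrected with normexp (offset 16, background inferred from the detection p-values), quantile-normalized and log2-transformed (neqc, limma 3.58.1, R 4.3.3). Probes with a detection p under 0.05 on at least 5 of 10 arrays were kept (12349), and the brightest kept probe stood for its symbol. Group differences come from limma's lmFit and eBayes without covariates, and p-values were adjusted across the 9365 tested genes (Benjamini-Hochberg). The fit was tested on simulated data. Members under the filter were fitted with all probes of the table, of which 6.72% were then called. Exact permutation tests used all 252 relabelings. The members, lists and motifs were chosen with earlier results of these data known. Named are every member, some or all of the called genes of each list (at most 5) and the 2 genes most like each tested member. Of the called enterocyte markers only some are named. Other listed genes given with values were chosen for their role or their values, after these were seen. The 7 pathway lists and 10 cell type lists share some genes. The array's own symbols were kept, and 2906 of them were matched to current names through a synonym. Nothing states that arrays of 1 group came from separate litters or extractions, so a p-value measures only how these samples spread, which may be technical. The number of arrays limits the precision.

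Alternatives were no background correction, median centring, cyclic loess, the authors' values, no filter, a stricter filter, every kept probe, trend with robust variance, array weights and each array left out. The enterocyte covariate and leaving out wild-type replicate 5 with iPGC-1β replicate 3 were added after the data were seen.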

Additional observations from a re-analysis of the deposited data

Results flagged for a closer look

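Among 72 groups of 5 arrays examined for the members and the called genes named here, 2 held an array far from the other 4, where chance gives about 1 in 20. Rela on iPGC-1β replicate 1 lay at a log2 intensity of 8.38, with 8.89 on the nearest array, a gap that is 0.769 of the group's range. S100a11 on iPGC-1β replicate 3 lay at 9.61, with 10.73 on the nearest array, a gap of 0.835 of the range. Without those arrays the log2 differences were -0.45 for Rela (limma's adjusted p = 0.0263) and -1.08 for S100a11 (adjusted p = 0.00332).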

How the results depend on the processing

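Lcn2 and Il18 kept direction and call under all 21 alternatives, with log2 differences between -1.21 and -0.52 and between -1.35 and -0.85 (limma's adjusted p at most 0.00512 and 0.0190). Nos2 kept its direction and passed with median centring (-1.13, adjusted p = 0.0481), with the enterocyte covariate (-1.66, adjusted p = 0.0345) and without iPGC-1β replicate 5, with -1.38 to -0.71 when single arrays were left out; the cause was not tested. Nos2 and Saa1 have no value under the stricter filter, which neither passed. The count of lower genes was 1105 with array weights and 421 to 792 with single arrays left out. The count of lower pathway genes was then 7 to 13, and 5 pathway genes were higher without wild-type replicate 5 and iPGC-1β replicate 3, against 3. No call of a named gene was reversed, while the differences of Il1b, Tnf and Duox2, which were near 0, took either sign when single arrays were left out. The 5 members under the filter were called under none of their 16 alternatives, where signals near background limit what can be seen. No paired analysis was possible because replicate numbers only name arrays and pair none across groups.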
